A study of Homo sapiens with 24 samples.

Results

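TB-only regions are places on the genome with CUT&RUN peaks from antibodies to the tags on the repressor BCL11A. The peaks were found in a doubly tagged clone of HUDEP-2 cells, but not in the clone that carries the BCL11A tags alone. HUDEP-2 is an immortalized human erythroid progenitor line, and CUT&RUN releases and sequences the DNA around a protein bound by an antibody. In clone TB the tags were HA and MYC on BCL11A, and FLAG and MYC on TR4, the product of NR2C2. Clone B has the BCL11A tags alone and clone T the TR4 tags alone, and each is a single edited clone, so a difference between clones cannot be told apart from the difference in tags. Each clone had 3 libraries per antibody (HA, MYC and TR4 in TB, HA and MYC in B, TR4 and MYC in T) and 1 IgG library, 24 in all. The deposited peak lists of all libraries were merged into 79570 regions (GRCh38), and the 7349 with an IgG peak were dropped. The TB-only regions were chosen by their peaks. In clone TB at least 2 of 3 libraries of each antibody, HA and MYC, had a peak, and in clone B none of the 6 such libraries did. They number 314 of the 72221 regions left (0.435%), and 4 of them lie outside the primary chromosomes. The TR4-antibody libraries and the target libraries of clone T had no part in that choice beyond the merging.

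BCL11A is a zinc-finger protein that silences the fetal γ-globin genes in adult red cell precursors, partly by binding TGACCA motifs at their promoters. TR4 is an orphan nuclear receptor that binds direct repeats of the motif AGGTCA, also at fetal and embryonic globin promoters. In clone TB only tagged BCL11A carries HA, whereas the MYC antibody can bring down either tagged protein. Clone T had no HA library, so what the HA antibody finds without an HA tag was not measured.

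Of the TB-only regions, 31 shared bases with at least 1 of the 35116 promoter windows of 300 bases in a RefSeq table (GRCh38.p14, 250 bases before and 50 after a start site), and together they touched 42 windows. TGACCA, counted on both strands, occurred in 3 of these 42 windows (7.14%), against 10.7% of all windows. The GATA motif AGATAA was also in 3 (7.14%, against 10.3% of all windows), as was the nuclear receptor motif AGGTCA (7.14%, against 13.8%). The E-box CACGTG occurred in 2 (4.76%, against 7.26%), and the direct repeat AGGTCANAGGTCA in 0, against 0.0228% of all windows; a match to that repeat counts for AGGTCA too. Inside the peak region itself lay 1 TGACCA, at FNIP2, and matches to AGGTCA at PURPL (on the other strand, so printed as TGACCT) and at the divergent start sites of GNL1 and PRR3, where both windows hold the same site. The 4 windows below are from RefSeq, written 5′ to 3′ on the gene's strand, with any letters of these motifs in capitals; they are shown because 3 hold a motif inside a TB-only region and NOVA1-DT is the start site with the highest MYC fold percentile among those named. FNIP2 and PURPL were picked after their matches were seen.
FNIP2, chr4:158805589-158805888, plus strand: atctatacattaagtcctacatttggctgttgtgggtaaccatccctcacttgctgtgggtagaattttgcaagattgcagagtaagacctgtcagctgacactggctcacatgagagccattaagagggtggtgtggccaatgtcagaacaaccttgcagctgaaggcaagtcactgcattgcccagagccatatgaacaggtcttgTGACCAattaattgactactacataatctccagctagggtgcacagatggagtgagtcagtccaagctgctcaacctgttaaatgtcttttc
PURPL, chr5:27472042-27472341, plus strand: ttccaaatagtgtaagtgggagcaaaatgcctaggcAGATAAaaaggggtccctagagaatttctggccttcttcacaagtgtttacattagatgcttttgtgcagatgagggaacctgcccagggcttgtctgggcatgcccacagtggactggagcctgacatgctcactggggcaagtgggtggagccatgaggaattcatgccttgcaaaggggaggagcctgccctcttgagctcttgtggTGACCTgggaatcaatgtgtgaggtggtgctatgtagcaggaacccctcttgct
GNL1, chr6:30556440-30556739, minus strand: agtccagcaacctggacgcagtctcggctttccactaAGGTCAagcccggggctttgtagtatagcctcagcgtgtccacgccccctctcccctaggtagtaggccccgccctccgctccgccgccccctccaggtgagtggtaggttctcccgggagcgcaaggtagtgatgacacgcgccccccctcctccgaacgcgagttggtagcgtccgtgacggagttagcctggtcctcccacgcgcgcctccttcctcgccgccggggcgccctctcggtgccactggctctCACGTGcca
NOVA1-DT, chr14:26598397-26598696, plus strand: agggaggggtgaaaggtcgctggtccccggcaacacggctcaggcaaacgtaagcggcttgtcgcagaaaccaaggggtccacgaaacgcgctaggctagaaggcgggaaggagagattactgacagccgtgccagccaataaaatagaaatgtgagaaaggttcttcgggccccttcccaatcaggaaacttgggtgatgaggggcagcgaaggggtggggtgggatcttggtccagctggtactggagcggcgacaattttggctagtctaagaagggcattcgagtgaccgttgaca
The NOVA1-DT window holds none of the 5 motifs, although the peak there covers all of it. The AGATAA in the PURPL window lies outside the peak region, and the E-box of the GNL1 window lies inside it.

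The TB-only regions sat among the weaker HA and MYC peaks of clone TB. For each peak the authors' caller gave a fold enrichment and a −log10 q, and a fold percentile ranks a peak within its own list, with 100 the strongest. HA peaks in TB-only regions had a median −log10 q of 7.38 (2.01 to 57.5) and a median fold of 7.03 (3.36 to 25.8). The MYC peaks had a median −log10 q of 9.72 (2.07 to 556) and a median fold of 8.03 (3.51 to 165). The HA peaks' median fold percentile was 38.2, 42.0 and 43.1 in the 3 HA libraries, against 70.9, 73.7 and 64.8 for the 12631 regions found in both clones TB and B. HA library 3, which has the shortest list of the 6 (15163 peaks), had a peak at 151 TB-only regions, whereas HA libraries 1 and 2 had 283 and 285. The MYC libraries had 277, 281 and 240. A peak in all 6 libraries was found at 59 TB-only regions, in 5 at 143 and in 4 at 112. These values come from the peaks that chose the regions and are a description with no test.

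The HA and MYC regions of clone TB were sorted by how many clone B libraries had a peak there. Clone TB had 15110 regions with a peak in at least 2 HA and 2 MYC libraries. Of these, 314 had a peak in 0 of the 6 HA and MYC libraries of clone B, 364 in 1, 631 in 2, 1003 in 3, 2800 in 4, 2798 in 5 and 7200 in all 6. The median HA fold percentile over the same steps was 40.3, 43.6, 46.7, 47.7, 53.5, 58.8 and 74.3, lowest at the TB-only step. The median MYC fold percentile was 41.4, 40.1, 43.4, 41.6, 50.6, 56.2 and 73.4, with little change over the steps 0 to 3. The share of TR4 regions of clone TB was 18.5%, 14.8%, 20.9%, 20.8%, 35.4%, 41.5% and 56.6%, lowest with 1 clone B library. The median region width was 206 bases at the TB-only step, 202 bases with 1 clone B library and 379 bases where all 6 libraries had a peak. Just outside the rule, the 364 regions with a single clone B library had a median fold percentile of 42.1 over the HA and MYC lists of clone TB, against 41.9 in the TB-only regions. The clone B library with that peak was MYC 1 for 128, MYC 2 for 94, HA 1 for 72 and HA 2 for 67 regions, with 2 from MYC 3 and 1 from HA 3, the shortest lists of clone B. A further 588 regions without a clone B peak missed the rule by 1 library of clone TB, with a median percentile of 34.7.

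**Figure D1:**
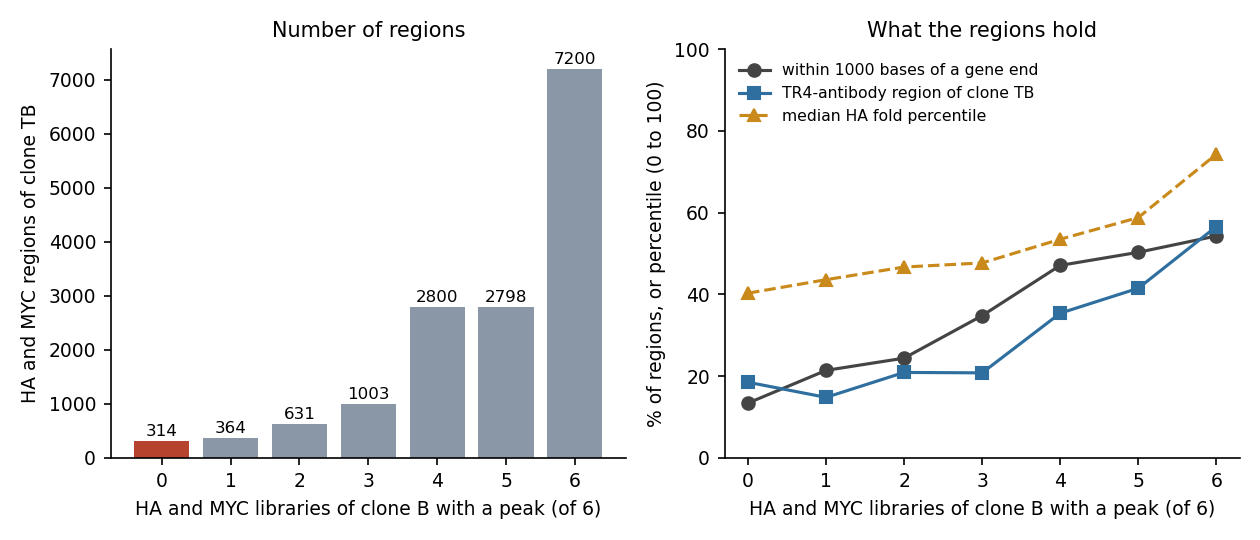
HA and MYC regions of clone TB by how many of the 6 HA and MYC libraries of clone B had a peak there (x axis). Left, the number of regions, with the 314 TB-only regions in red; right, the share at a gene end, the share that were TR4-antibody regions of clone TB and the median HA fold percentile, of which the gene-end share (13.4%) and the HA percentile (40.3) are lowest at 0 and the TR4 share is lowest at 1 (14.8%).

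Most TB-only regions were not regions of TR4. A TR4-antibody peak was present in 67, 75 and 47 of the 314 TB-only regions in the 3 libraries of clone TB, and in 38, 57 and 20 in the 3 of clone T. Those counts are 21.3%, 23.9% and 15% in clone TB and 12.1%, 18.2% and 6.37% in clone T, so library 2 of clone T overlapped the range of clone TB. The mean was 20.1% ± 4.59 in clone TB and 12.2% ± 5.89 in clone T (SD, n = 3 each), so that clone TB exceeded clone T by 7.86 percentage points (two-sided exact permutation test, p = 0.200, adjusted p = 0.3 over 3 sets of regions). With 3 libraries against 3 the smallest p is 0.1, and since the labels do not say that the libraries came from separate cultures, p measures only the spread between libraries. At regions of both clones the same libraries gave 48.1% ± 11.3 in clone TB and 44.6% ± 17.6 in clone T (SD, n = 3 each), a difference of 3.44 points (exact permutation test, p = 0.700, adjusted p = 0.700). At the 710 B-only regions, chosen by the mirror rule, the values were 0.469% ± 0.215 in clone TB and 3.99% ± 4.36 in clone T (SD, n = 3 each), a difference of -3.52 points (exact permutation test, p = 0.100, adjusted p = 0.3). The rule bears on these 2 sets in opposite ways, because TB-only regions need a MYC peak of clone TB, which can come from TR4, and B-only regions may hold none. The MYC antibody in clone T found peaks at 18.5%, 22% and 7.32% of the TB-only regions. Read against that antibody the difference was 4.14 points (exact permutation test, p = 0.600), and with every list limited to the length of the shortest it was 3.29 points (exact permutation test, p = 0.100).

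**Figure D2:**
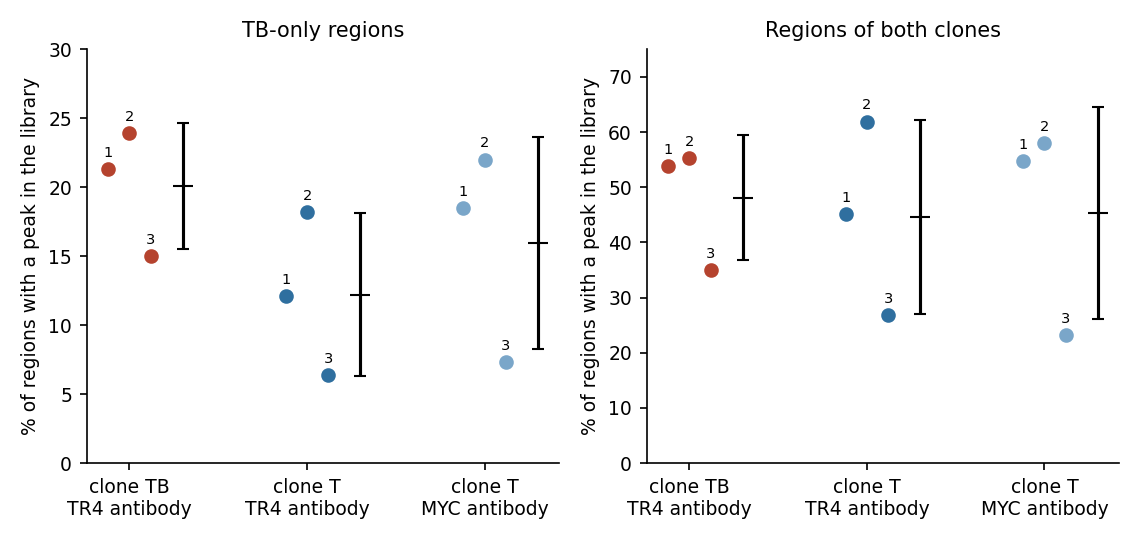
Percentage of TB-only regions (left, y axis to 30%) and of regions of both clones (right, y axis to 75%) with a peak in each TR4-directed library, numbered by replicate, with mean ± SD in black. At TB-only regions the 3 TR4 libraries of clone TB lie between 15% and 23.9% and those of clone T between 6.37% and 18.2%, so they overlap.

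Counted as regions with a TR4-antibody peak in at least 2 of 3 libraries, 58 TB-only regions (18.5%, 95% exact binomial interval 14.3 to 23.2, counting error only) were TR4 regions of clone TB. The same held for 44.2% of all HA and MYC regions of clone TB and for 11.7% of all 72221 regions. In clone T, 34 TB-only regions (10.8%) were TR4-antibody regions, against 40.0% of the HA and MYC regions of clone TB and 11.1% of all regions. MYC regions of clone T numbered 51 (16.2%), against 44.4% and 13.3%. No peak in any of the 9 TR4-directed libraries (TR4 antibody in clones TB and T, MYC antibody in clone T) was listed at 192 TB-only regions (61.1%), whereas this was so for 23.1% of the regions of both clones. The TR4 regions of clones TB and T coincided at 29 TB-only regions, another 29 were TR4 regions of clone TB and not of clone T, and 5 of clone T and not of clone TB. At the 12631 regions of both clones these counts were 4903, 1296 and 793. Of the 58 TB-only regions that were TR4 regions of clone TB, 12 had a peak in 0 of the 6 TR4 and MYC libraries of clone T. This was so for 238 of the 6199 such TR4 regions among the regions of both clones.

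The HA and MYC antibodies ranked the TB-only regions differently according to TR4. Where all 3 TR4 libraries of clone TB had a peak (33 regions), the median fold percentile was 71.8 in the MYC libraries and 32.6 in the HA libraries, and MYC exceeded HA in 31 of 33. Where 2 of 3 had a peak (25 regions), MYC exceeded HA in 22, and where 1 had a peak (40 regions), in 24. Without a TR4 peak (216 regions) the order turned, with a median of 35.6 for MYC and 42.1 for HA, and MYC exceeded HA in 71. Regions just outside the rule split the same way: 384 had a MYC peak in 2 or 3 libraries of clone TB but HA in 1, and 22.1% of them were TR4 regions of clone TB, against 0.490% of the 204 with HA in 2 or 3 and MYC in 1. The same split was not computed for the regions of both clones, so these counts do not show a trait particular to TB-only regions. Which of the tagged proteins the MYC peaks of clone TB came from was not tested.

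**Figure D3:**
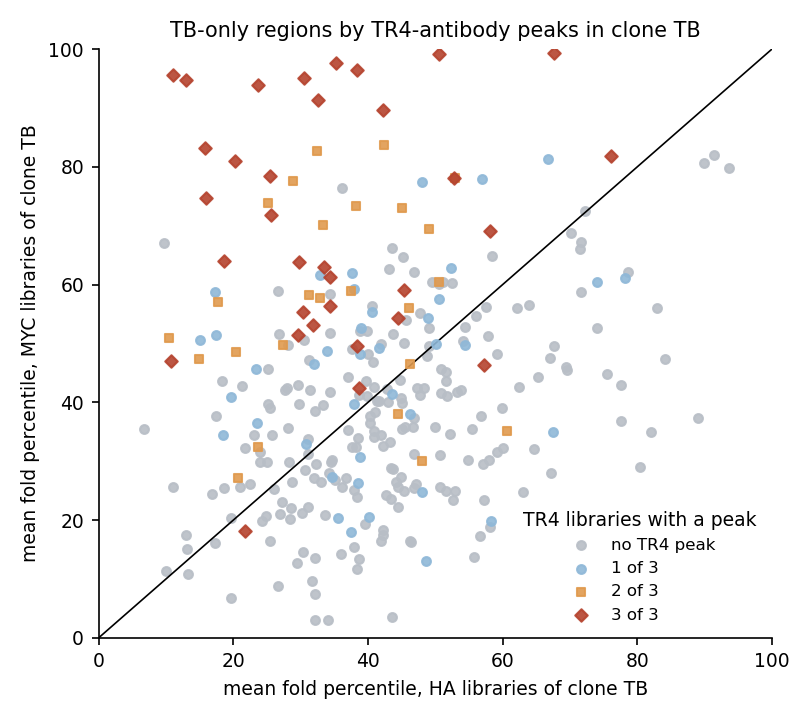
Each point is a TB-only region, placed by its mean fold percentile in the HA libraries (x axis) and the MYC libraries (y axis) of clone TB and coloured by how many of the 3 TR4 libraries of clone TB had a peak; the line marks equal percentiles. Regions with 3 TR4 peaks lie above the line in 31 of 33 cases, and those without a TR4 peak in 71 of 216.

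Among TB-only regions with a peak in all 6 libraries, the 3 highest mean fold percentiles belonged to regions away from gene ends and without TR4 peaks. Inside ARHGAP32, the region chr11:129143411-129143653 had −log10 q values of 57.5, 46.4 and 25.1 in the HA libraries and 28.2, 33.4 and 28.6 in the MYC libraries. Close behind was chr1:84247560-84247843, 9062 bases from an end of PRKACB (a catalytic subunit of protein kinase A), with 31.2, 37.0 and 31.8 for HA and 40.8, 42.6 and 21.1 for MYC. At both, all 9 TR4-directed libraries were without a peak, and the nearest clone B peak was 81767 bases from the ARHGAP32 region and 51144 bases from the PRKACB region. The region chr2:123696957-123697362, 327925 bases from an end of CNTNAP5 (a neurexin-family adhesion gene), had HA values of 38.8, 27.6 and 29.6 and MYC values of 25.1, 56.1 and 23.4, again with no TR4-directed peak. Of the 12 strongest regions with a peak in all 6 libraries, 8 had no TR4 peak in clone TB. That share is close to the one over all TB-only regions, 216 of 314. The mean fold percentiles of the 12 ran from 62.8 to 86.8.

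A few regions had TR4 peaks in clone TB and none in clone T. The start site of NOVA1-DT, the divergent transcript of the neuronal splicing regulator NOVA1, lies in chr14:26598140-26598739, 107 bases from the NOVA1 record. This region had MYC −log10 q values of 375, 398 and 314 and TR4 values of 194, 184 and 206 in clone TB. HA values were 12.4 and 17.7 in libraries 1 and 2, with no peak in library 3. All 6 libraries of clone T lacked a peak there and the nearest clone B peak was 234894 bases away, so the peaks were seen in clone TB and in no library of the other clones. The region chr7:25855067-25855341, 296857 bases from an end of NFE2L3 (a CNC-family transcription factor), had HA values of 20.5, 24.9 and 9.68, MYC values of 41.4, 33.2 and 19.9 and TR4 values of 24.5, 36.9 and 22.2, with no peak in clone T. There a clone B peak lay 1750 bases away. The other 6 regions named by this rule (at or near AKNA, ZNF582, PITHD1, TNFRSF1A, SIGLEC7 and LOC124907867) had a TR4 peak in 2 of the 3 libraries of clone TB. PITHD1 lies 115 bases from a clone B peak and 8 bases from an IgG peak.

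A peak in all 9 TR4-directed libraries was found at 10 TB-only regions, a count that was not made for other regions. The 4 of them with the highest TR4 fold percentiles in clone TB had HA −log10 q values of at most 18.1. The start site of CSNK1G1, a casein kinase 1 gene, lies in chr15:64356016-64356656, where TR4 −log10 q values were 774, 774 and 358 in clone TB and 626, 776 and 234 in clone T. The HA values there were 18.1 and 3.85 in libraries 2 and 3, with none in library 1. At GNL1 and PRR3 (chr6:30556438-30557069), the window with the AGGTCA match printed above, TR4 values were 52.1, 48.3 and 24 in clone TB and 57.9, 70.1 and 22.5 in clone T, and HA values were 2.80 and 3.6 in libraries 1 and 2. Inside BTD, the biotinidase gene, chr3:15619850-15620212 had TR4 values of 52.1, 50.2 and 33 in clone TB and 16.9, 33.3 and 13.1 in clone T, with HA values of 3.6 and 4.43 in libraries 2 and 3. The fourth, chr1:148297904-148298277, lies 145623 bases from an end of NBPF11, of a family of near-identical copies, so its reads may be shared with other copies.

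**Figure D4:**
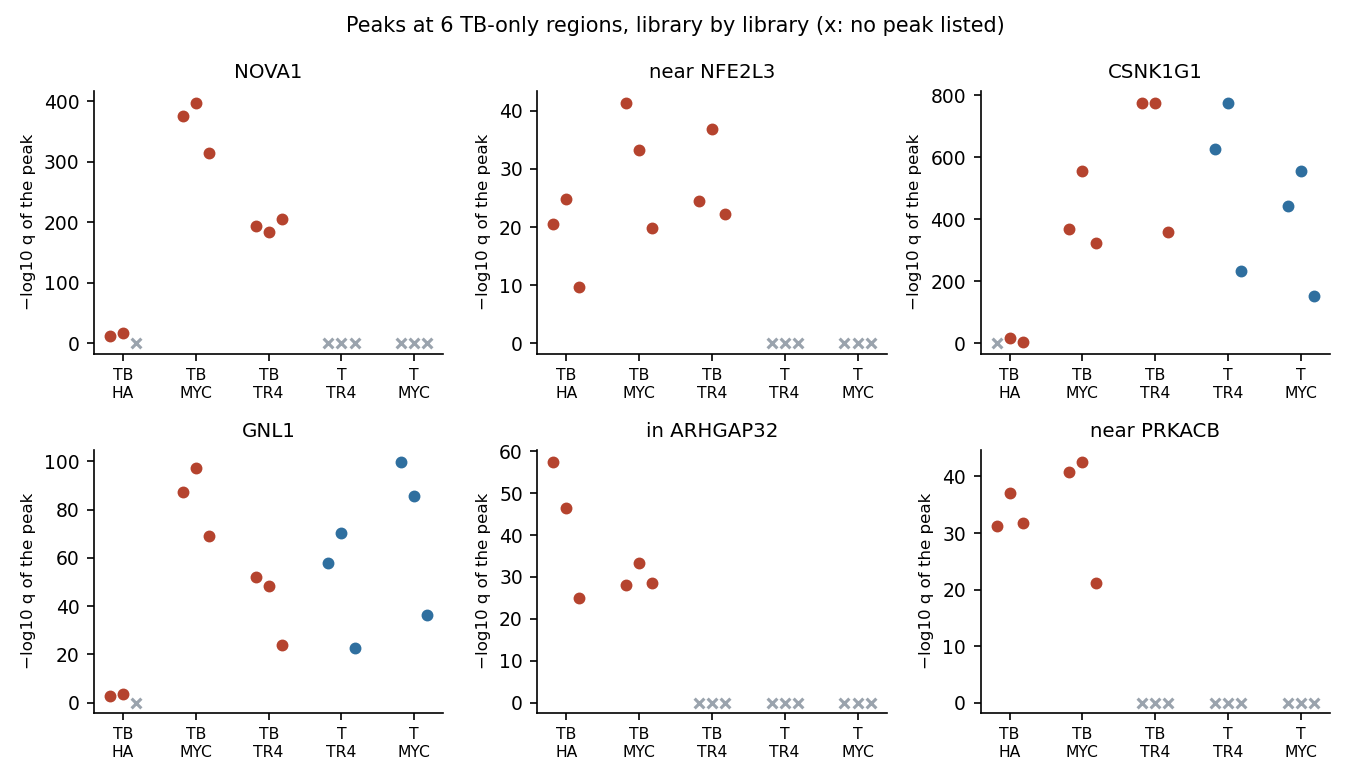
−log10 q (y axis, own scale per panel) of the peak in each library at 6 TB-only regions, with clone TB in red (HA, MYC, TR4) and clone T in blue (TR4, MYC); a grey cross marks a library with no peak listed. NOVA1 and NFE2L3 have TR4 peaks in clone TB and none in clone T, CSNK1G1 and GNL1 have them in both clones, and ARHGAP32 and PRKACB in neither.

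TB-only regions were mostly away from gene ends. A protein-coding gene record began or ended within 1000 bases of 42 of them (13.4%, 95% exact binomial interval 9.81 to 17.6, counting error only), against 52.1% of the regions of both clones and 24.9% of the B-only regions. The share was 48.0% over all HA and MYC regions of clone TB and 24.9% over all 72221 regions. The median distance to a gene end was 12.7 kb for TB-only regions, 0.640 kb for regions of both clones and 7.27 kb for B-only regions. Some part of a gene record covered 156 TB-only regions (49.7%), and 73.3% of the regions of both clones. Over the steps of 0 to 6 clone B libraries with a peak, the gene-end share was 13.4%, 21.4%, 24.4%, 34.8%, 47.1%, 50.3% and 54.3%. Among TB-only regions with a peak in all 6 libraries of clone TB the share was 1.69% (1 of 59, at ZNF658, a zinc-finger gene with close copies, picked after its values were seen), whereas TB-only regions that were TR4 regions of clone TB had 27.6% at a gene end, against 9.26% of those with no TR4 peak there. With every list limited to its 4621 strongest peaks, the rule gave 112 regions with a gene-end share of 40.2%, but 1 of these 112 was a TB-only region of the whole lists and 111 held a clone B peak of the whole lists.

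Among genes whose promoter window shared bases with a TB-only region, picked after their values were seen, EGR1, an immediate-early zinc-finger gene, had HA −log10 q values of 27.0 and 37.7 in libraries 1 and 2 and MYC values of 12.3 and 4.88 in libraries 1 and 3. A clone B peak lay 152 bases from that region, chr5:138465348-138465485. At USF1, which encodes an E-box-binding factor, chr1:161045066-161045576 had TR4 values of 28.7, 25.8 and 22.5 in clone TB and 33.3, 42.9 and 11.1 in clone T, HA values of 7.22 and 3.47, and a clone B peak 297 bases away. FNIP2, a folliculin-interacting gene, had HA values of 14.2 and 9.05, MYC values of 16.4, 16.3 and 8.37 and no TR4-directed peak at chr4:158805627-158805890. PURPL, a p53-regulated long non-coding RNA, had HA values of 5.61 and 6.97 and MYC values of 17.8 and 12.6, with the nearest clone B peak 749506 bases away.

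Within 1000 bases of an HA or MYC peak of clone B were 60 TB-only regions (19.1%); the distance ran from 3 bases to 974 kb with a median of 7.30 kb, and it exceeded 100 kb at 38. The gene-end share was 26.7% in those 60 and 10.2% in the other 254. An IgG peak lay within 1000 bases of 5 TB-only regions (1.59%), against 1.21% of the regions of both clones. The densest run of neighbours, 6 regions at chr17:43211670-43295866 beside NBR1, TMEM106A and CCDC200, lay 83 to 308 bases from clone B peaks at every region. Whether reads in this run map to a single place was not tested, so the 6 may not be separate sites. Runs of regions within 50 kb of each other numbered 9 and held 22 TB-only regions.

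None of the 18 gene lists for erythroid, blood-lineage, nuclear receptor and housekeeping biology had a gene with a TB-only region at its ends. Over all 20033 protein-coding genes the share was 0.265% (53 genes). Each list held 10 to 28 genes, so 0 is close to that share and does not show that TB-only regions avoid them. Inside the gene record, or at its ends, 182 genes (0.909%) had a TB-only region. Of 28 fetal globin regulators 2 did (7.14%). LIN28B, an RNA-binding protein of the fetal programme that blocks let-7, held chr6:105070656-105070815 with HA values of 6.08 and 9.84 in libraries 1 and 2 and MYC values of 9.82, 8.69 and 10.4. HIC2, a repressor that acts on the BCL11A gene, held chr22:21437078-21437418 with HA values of 6.62 and 3.29 in libraries 1 and 3 and MYC values of 6.13 and 4.96 in libraries 2 and 3. Those of LIN28B and HIC2 were without a TR4 peak in clone TB.

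Of 19 megakaryocyte and platelet genes 1 held a region, ITGB3 (integrin β3, of the platelet fibrinogen receptor), with MYC values of 26.5, 14.8 and 23.2, HA values of 9.44 and 7.29 and TR4 peaks in 2 libraries of clone TB. Of 21 erythropoietin and KIT signalling genes 1 did, BCL2L1, the survival factor of late erythroid cells, with HA values of 9.27, 7.62 and 4.35 and MYC values of 5.11, 5.89 and 4.34. Of 12 glucocorticoid response genes 1 did, SGK1, a hormone-induced kinase. Of 28 nuclear receptor genes 1 did, PPARD. The 10 globin genes, 20 erythroid transcription factors, 22 stem and progenitor factors, 25 heme and iron genes and 22 NuRD and corepressor genes had 0 at an end or inside. The same held for 15 myeloid, 19 lymphoid, 20 hypoxia and glycolysis and 18 cell-cycle control genes. It also held for the 21 listed ribosomal protein genes and 28 adhesion, cytokine and guidance genes. Of the 24 red cell membrane genes RHD alone held a region, and of the 15 mast cell, basophil and eosinophil genes FCER1A alone did. RHD has a near-identical neighbour, RHCE. With so few genes per list, these counts are descriptions.

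No TB-only region lay within 50 kb of the β-globin or α-globin genes. The regions at the fetal genes HBG1 and HBG2 missed the rule by 2 clone B libraries. Their regions, chr11:5249725-5250045 and chr11:5254699-5254970, each had peaks from all 6 HA and MYC libraries of clone TB and from 1 HA and 1 MYC library of clone B, with none from the TR4 antibody in clone TB. The counts at HBG1 and HBG2 were the same, and whether reads were shared between the 2 genes was not tested.

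TB-only regions were spread unevenly over the chromosomes. Per 1000 HA and MYC regions of clone TB there were 20.8 TB-only regions in all, and on chromosomes 4, 9, 8, 12, 13 and 6 there were 38.9, 34.4, 34.0, 32.8, 31.7 and 31.4. Those 6 chromosomes, picked as the highest after the counts were seen, held 118 TB-only regions (37.6%), against 22.6% of the regions of both clones and 23.5% of the B-only regions. The lowest autosomal values were 6.37 on chromosome 18 (1 region), 8.04 on chromosome 3 (6 regions) and 11 on chromosome 10 (6 regions). Whole lists hardly differed in this: the 6 chromosomes held 23% to 24.4% of the peaks of the HA and MYC libraries of clone TB and 22.6% to 23.9% of those of clone B. Chromosome 19, rich in zinc-finger genes, had 33 TB-only regions (10.5%), against 10.8% of all HA and MYC regions of clone TB.

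**Figure D5:**
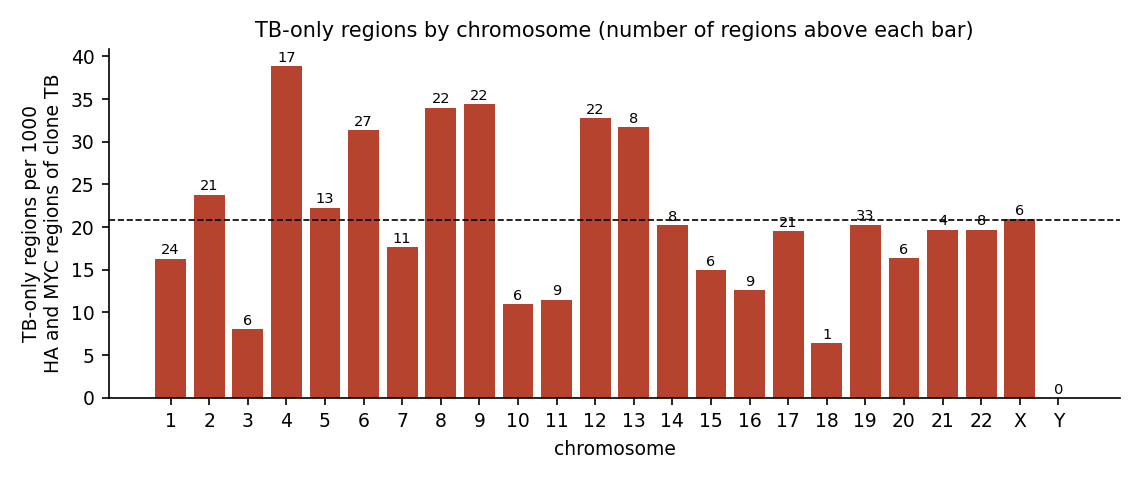
TB-only regions per 1000 HA and MYC regions of clone TB on each chromosome (y axis), with the number of TB-only regions above each bar and the value over all chromosomes, 20.8, as a dashed line. Chromosome 4 stands highest at 38.9 with 17 regions, and chromosome 18 lowest of the autosomes at 6.37 with 1 region.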

How the data were processed

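The submitters' processing notes name MACS2 2.1.4, Bowtie2, SAMtools, Picard and Trimmomatic and the build GRCh38, without a role for any tool. A peak list for every library, 24 in all, was deposited by the authors. A peak's deposited values are its fold enrichment, a linear ratio, its −log10 q-value and the offset of its summit, and the folds were ranked within a list, not compared between lists. Reads were not analysed here, so depth is unknown; target lists held 4621 to 31432 peaks and IgG lists 2036 to 4828.

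Peaks sharing at least 1 base were merged (Python 3.11.15, pandas 2.3.3, NumPy 2.4.6). To count as a region of a group, 2 of its 3 libraries had to have a peak. The rule, the lists and the tests were chosen with earlier results of these data known. Shares per library were compared between clones TB and T by exact permutation tests (SciPy 1.17.1), Benjamini-Hochberg adjusted over 3 sets, and the steps were tested on simulated data. Gene ends came from a RefSeq table (GRCh38.p14) without strand or exons, so exon, intron and UTR are not given; motifs were searched in promoter windows, since no genome sequence was used here, and windows on chromosome 8 were not used here. Named were the strongest regions in all 6 HA and MYC libraries of clone TB, the strongest with TR4 in clone TB alone or in clones TB and T, those nearest to listed genes, the densest runs, and those closest to and farthest from clone B peaks; the text prints part of them. Alternatives were list length, q threshold, merging, distance to clone B peaks, gene-end window and leaving out each library. The gene-end and IgG distances by subset, and the 6 chromosomes, were added after the data were seen.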

Additional observations from a re-analysis of the deposited data

How the results depend on the processing

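The rule gave 314 TB-only regions with whole lists and 112 regions with all lists limited to the shortest. Of those 112, 1 shared bases with a TB-only region of the whole lists, so nearly all were other regions. It gave 175 with −log10 q of at least 5 asked of clone TB alone and 59 with all 3 HA and all 3 MYC libraries asked for. With that q asked of every list, so that weaker clone B peaks no longer excluded a region, the count was 275. It was 294 with gaps of 200 bases bridged, 254 without a clone B peak within 1000 bases and 322 with IgG regions kept. Leaving out single HA or MYC libraries gave 120 to 442; the count moved over 1.5 times without clone TB HA library 1 (122) or 2 (120) and without its MYC library 1 (207) or 2 (203), where a peak in both libraries left was required. The gene-end share of 13.4% became 29.9% at 5000 bases, 1.69% over the 59 and 40.2% over the 112. The share of TR4 regions of clone TB, 18.5%, became 10.5% with TR4 peaks in all 3 libraries, 31.2% with at least 1 and 14% at −log10 q of at least 5. It was 11.8% to 15.3% without single TR4 libraries, where a peak in both libraries left was required, so that the share could only fall. The TR4 difference between clones TB and T, 7.86 points, stayed positive in all 12 alternatives (3.29 to 10.8 points, exact permutation p from 0.100 to 0.600). Of these, leaving out clone T TR4 library 3 gave 4.94 points. All 12 used regions that needed MYC peaks of clone TB, which can come from TR4, and no peak of clone T. The rule itself thus favours a positive sign, and its persistence is no separate evidence. With a replicate block (exact sign-flip over 3 same-numbered pairs) the difference was 7.86 points with p = 0.250, the smallest it can give. Same-numbered libraries correlated at 0.0642, 0.0566 and 0.152 over 20543 regions, and pairs of unlike number at -0.103 to 0.0420. Each library thus correlated best with its own number, but the labels give no pairing. These values compare pairings only and do not measure how alike the TR4 libraries of the 2 clones are. Except where a stricter requirement or a wider window sets the count, the cause of these moves was not tested. Unknown depth limits every absence of a peak.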
